A study of Mus musculus with 4 samples.

Results

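The genes described here are the core machinery that makes and uses microRNAs: the nuclear cleavage enzyme Drosha and its partner Dgcr8, the export receptor Xpo5, the cytoplasmic nuclease Dicer1, the Argonautes Ago1, Ago2, Ago3 and Ago4, and the silencing scaffolds Tnrc6a and Tnrc6c. They were taken by name from a list of microRNA genes, and all 10 were found by symbol among the 78334 gene identifiers of the deposited table. All 10 also passed the low-count filter that left 11427 genes for testing.

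The cells were retinal ganglion cells of wild-type mice of both sexes, neurons that send their axons into the optic nerve. Each mouse received, at 8 weeks of age, an intravitreal injection of an adeno-associated virus of serotype 2, and the optic nerve was crushed 2 weeks later. One group carried an anti-miR132-3p shRNA, a hairpin that produces an RNA complementary to the microRNA miR-132-3p. The other carried a scramble shRNA. Both viruses also expressed mCherry, and both groups were crushed, so there is no uninjured or uninfected group here. About 5000 mCherry-positive cells per library were sorted 2 weeks after the crush from a suspension of 10 retinas per condition, after panning on the surface antigen Thy1. About 40% of ganglion cells are stated to be transduced. Per the labels, polyadenylated RNA was sequenced.

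In textbook outline, a primary microRNA transcript is cut in the nucleus by the Microprocessor, made of Drosha and Dgcr8. The released hairpin leaves through exportin-5 with Ran-GTP, is cut again by Dicer, and 1 strand is kept by an Argonaute. The Argonaute binds a GW182 protein of the Tnrc6 family, which recruits the enzymes that shorten the poly(A) tail and decap the messenger. A vector-made short hairpin enters the same path, at the export step if it is transcribed as a bare hairpin and at the Microprocessor step if it is embedded in a microRNA backbone. The labels do not say which design was used, but they describe the same vector type in both groups.

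The sequences that the vectors and the targeted microRNA bring to this machinery are shown first, since every comparison here is between cells that process one insert and cells that process the other. The microRNA sequences are from RefSeq (GRCm38.p6), with the seed, bases 2 to 8, in capitals. The insert sequences are those given in the labels, and the capitals in the anti-miR132-3p insert mark the bases opposite the seed.
miR-132-3p: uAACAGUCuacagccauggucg
miR-212-3p: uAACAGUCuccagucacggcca
anti-miR132-3p insert: cgaccatggctgtaGACTGTTa
scramble insert: tcgagggcgacttaaccttagg
The anti-miR132-3p insert was complementary to miR-132-3p at 22 of 22 bases. It was complementary at 17 of 22 bases to miR-212-3p, which is encoded in the same cluster and has the same seed. The scramble insert did not hold the 7 bases opposite the seed. Mir132 and Mir212 had 0 counts in every library, and polyadenylated RNA does not measure the mature forms.

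The anti-miR132-3p libraries held 1732416 and 1731199 counts, and the scramble libraries 1845090 and 1846637. Within a group the 2 libraries differed by no more than sampling noise. A chi-square test over genes, divided by its degrees of freedom, gave 1.00 (p = 0.49) for the anti-miR132-3p pair and 1.02 (p = 0.095) for the scramble pair, against 4.01 to 4.03 for libraries of different groups. A pair thus counts as 1 sample (n = 1 per group), without an SD, and the differences below have no check by replicates. Adjusted p-values, from edgeR's quasi-likelihood test on the 4 libraries, compare the reads of these libraries and not the conditions, and the 95% intervals of folds (exact, Clopper-Pearson, on summed counts) cover counting error only. The table's columns name mCherry for one group, which was taken as the scramble by exclusion, and every direction depends on it. Levels are in CPM, counts scaled to the library total with edgeR's TMM factors. The 12 ganglion cell markers, none at 0 in either group, summed to 2196 and 2141 CPM in anti-miR132-3p libraries, against 2001 and 2008 CPM in scramble libraries, with 3 of 11 tested called higher and 2 lower. Markers of other retinal cells were present too. Amacrine markers summed to 2790 and 2736 CPM in anti-miR132-3p libraries, against 2613 and 2666 CPM in scramble libraries, with 3 of 6 tested called higher and 1 lower, although Tfap2b, Gad1 and Slc32a1 were at 0 in every library.

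All 10 machinery transcripts had a higher level with the anti-miR132-3p than with the scramble shRNA, by 1.05-fold to 1.48-fold, and none reached 1.5-fold. Drosha and Tnrc6c, 2 of the 10, passed the test. Against this, 13.5% of all tested genes were called higher and 10.4% lower, and 12.6% were at least 1.5-fold higher and 5.12% at least 1.5-fold lower. A count of 2 in 10 is near that background. When tested genes were cut into 5 equal classes by transcript length, 20.2% of the class with the longest transcripts were called higher, and 7 of the 10 members lie in that class. EdgeR's quasi-likelihood test called 0 members lower, and DESeq2 called 0 lower. In bulk RNA of this kind, more RNA per cell and more cells of a type that uses the gene cannot be told apart.

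**Figure D1:**
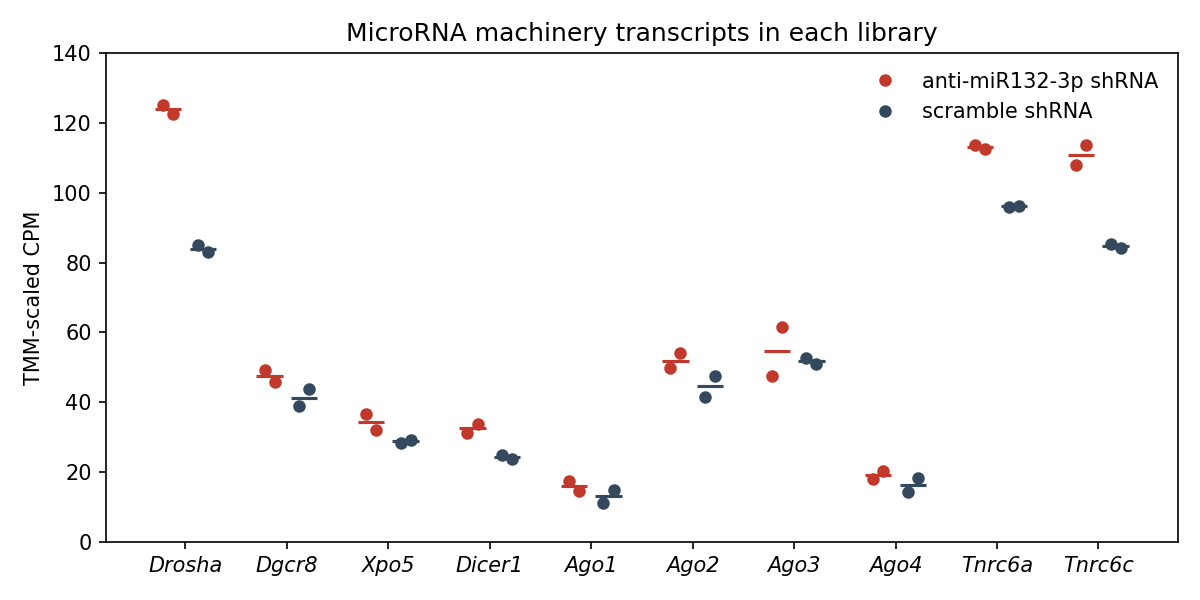
TMM-scaled CPM of the 10 machinery transcripts in each library; points are single libraries and short lines the value of the summed pair, with n = 1 per group. Drosha lies at 125 and 122 CPM in anti-miR132-3p libraries, clear of 84.9 and 83.0 CPM in scramble libraries, whereas the points of Ago1, Ago3 and Ago4 overlap between groups.

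Drosha, the nuclear ribonuclease that makes the first cut in a primary microRNA, differed most. It had 216 and 211 counts in the anti-miR132-3p libraries, against 153 and 150 in scramble libraries. These are 125 and 122 CPM in the anti-miR132-3p libraries, against 84.9 and 83.0 CPM in the scramble libraries. Both anti-miR132-3p libraries stood above both scramble libraries. The summed level was 1.48-fold higher (1.27 to 1.72), with a log2 fold change of 0.56 and an adjusted p of 4.9e-04 by edgeR's quasi-likelihood test. DESeq2's Wald test also called it (adjusted p = 0.0274). Leaving out any of the 4 libraries left its log2 fold change between 0.54 and 0.58. That fit leaves a single library in a group and ended the edgeR calls of all genes. The loss of the call is thus not particular to Drosha.

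Dgcr8, the RNA-binding partner that positions Drosha and whose own messenger contains hairpins that the Microprocessor cuts, had 85 and 79 counts in anti-miR132-3p libraries, against 70 and 79 in scramble libraries. At 49.3 and 45.9 CPM for anti-miR132-3p against 38.8 and 43.7 CPM for scramble, the groups did not overlap. The fold was 1.15 (0.918 to 1.45), and the test did not call it (adjusted p = 0.36, edgeR). Drosha held 72.3% (68.5% to 75.8%, Clopper-Pearson) of the counts of Drosha and Dgcr8 together with the anti-miR132-3p shRNA, and 67.0% (62.5% to 71.4%) with the scramble shRNA. These intervals overlap, and whether Drosha and Dgcr8 changed unequally was not tested. The Dgcr8 counts carry a further uncertainty. Its exons overlap those of Trmt2a, a tRNA methyltransferase gene on the opposite strand, by 825 bases in GENCODE M21, and the strand setting of the count is not given. Trmt2a had 85.2 and 76.1 CPM in anti-miR132-3p libraries, against 67.7 and 61.4 CPM in scramble libraries.

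Xpo5, the receptor that carries precursor hairpins out of the nucleus, had 63 and 55 counts in anti-miR132-3p libraries, against 51 and 53 in scramble libraries. At 36.5 and 31.9 CPM for anti-miR132-3p against 28.3 and 29.3 CPM for scramble, the groups stood apart by little. The fold was 1.19 (0.905 to 1.56), and Xpo5 was not called (adjusted p = 0.351, edgeR).

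Dicer1, which cuts the exported precursor and also processes short hairpins, had 54 and 58 counts in anti-miR132-3p libraries, against 45 and 43 in scramble libraries. The libraries of the groups did not overlap, at 31.3 and 33.7 CPM for anti-miR132-3p against 25.0 and 23.8 CPM for scramble. This was the second largest fold among the members, 1.33, but its interval of 0.999 to 1.78 reaches 1 and its adjusted p by edgeR was 0.128.

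None of the 4 Argonautes, the proteins that hold the guide strand, was called. Ago2, the mammalian Argonaute best known for cutting its target, had 86 and 93 counts in anti-miR132-3p libraries, against 75 and 86 in scramble libraries. Its levels were 49.9 and 54.0 CPM for anti-miR132-3p against 41.6 and 47.6 CPM for scramble, narrowly apart, and the fold of 1.16 (0.936 to 1.45) was not called (adjusted p = 0.305, edgeR). Ago2 overlaps Chrac1, a gene for a chromatin accessibility subunit on the opposite strand, by 219 exonic bases in GENCODE M21, and Chrac1 was called in the other direction, 1.35-fold lower (1.09 to 1.69, adjusted p = 0.0376 by edgeR).

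Ago3, with 82 and 106 counts in anti-miR132-3p libraries against 95 and 92 in scramble libraries, had the smallest fold of the members, 1.05 (0.855 to 1.30). The anti-miR132-3p libraries, at 47.5 and 61.5 CPM, lay on either side of the scramble libraries, at 52.7 and 50.9 CPM. Its direction turned, to a log2 fold change of -0.12, when anti-miR132-3p replicate 2 was left out.

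Ago1 had 30 and 25 counts in anti-miR132-3p libraries and 20 and 27 in scramble libraries. Ago4 had 31 and 35 counts in anti-miR132-3p libraries and 26 and 33 in scramble libraries. Both genes overlapped between groups, with folds of 1.23 (0.815 to 1.85) for Ago1 and 1.17 (0.812 to 1.69) for Ago4, and both intervals include folds on either side of 1. Summed over the 4 Argonautes, the level was 142 CPM in anti-miR132-3p libraries, against 126 CPM in scramble libraries, a fold of 1.13 (0.988 to 1.28).

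The GW182 scaffolds, which link an Argonaute to the deadenylases, included the second called member. Tnrc6c had 186 and 196 counts in anti-miR132-3p libraries, against 154 and 152 in scramble libraries, at 108 and 114 CPM for anti-miR132-3p against 85.4 and 84.1 CPM for scramble. The groups were well apart, with a fold of 1.31 (1.12 to 1.52) and an adjusted p of 0.0101 by edgeR's quasi-likelihood test. DESeq2's Wald test did not call Tnrc6c (adjusted p = 0.232). Leaving out any library left its log2 fold change between 0.35 and 0.43 and ended edgeR's call, as it did for every gene.

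Tnrc6a had 196 and 194 counts in anti-miR132-3p libraries, against 173 and 174 in scramble libraries. Its libraries agreed closely within each group, at 114 and 113 CPM for anti-miR132-3p against 96.0 and 96.3 CPM for scramble, and its fold of 1.18 (1.02 to 1.36) excluded 1 by counting error alone but was not called (adjusted p = 0.0817, edgeR). Tnrc6b, the remaining member of the family and not in the set of 10, had 201 and 195 counts in anti-miR132-3p libraries and 143 and 171 in scramble libraries. It was called higher, 1.32-fold (1.14 to 1.54, adjusted p = 0.0118 by edgeR), but not after GC content and length were fitted out (log2 fold change 0.24, adjusted p = 0.112). The 3 scaffolds summed to 338 and 340 CPM in anti-miR132-3p libraries, against 261 and 275 CPM in scramble libraries, 1.26-fold higher (1.16 to 1.38).

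**Figure D2:**
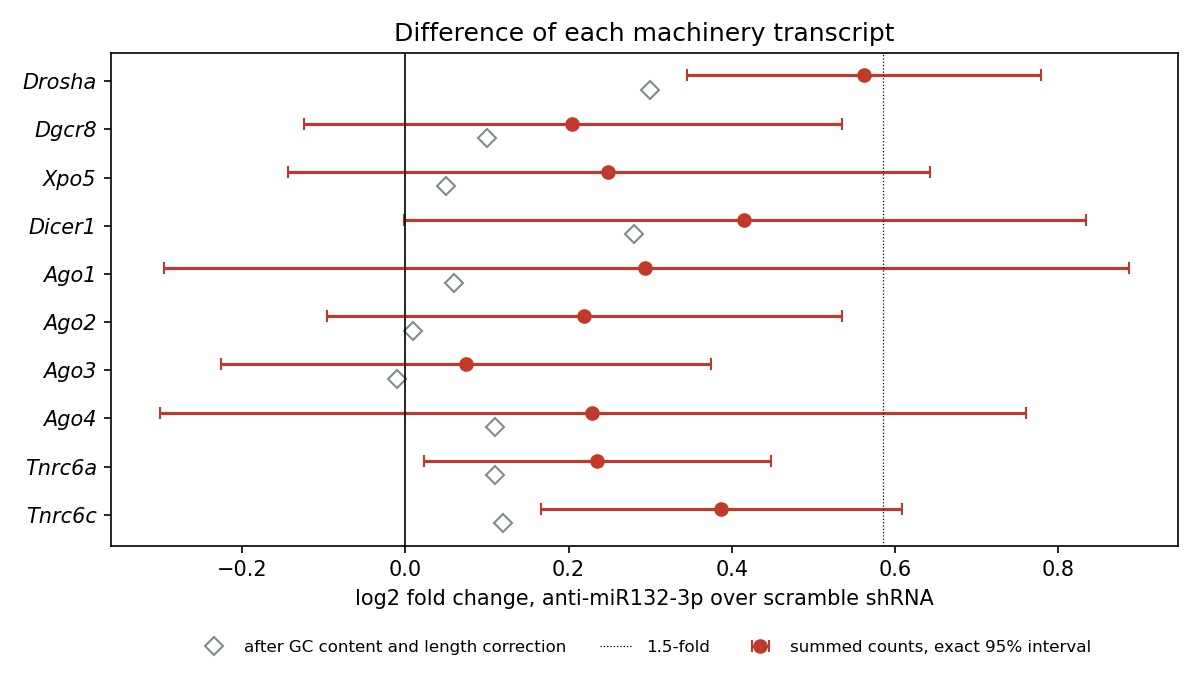
log2 fold change, anti-miR132-3p over scramble, of each machinery transcript from counts summed over a pair, with exact 95% intervals that cover counting error only (filled circles), and again once GC content and transcript length were fitted out (open diamonds, no interval); the dotted line marks 1.5-fold. The intervals of Drosha, Tnrc6a and Tnrc6c exclude 0, and the correction moves every point to the left, Ago3 to -0.01.

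Machinery transcripts are long, with a median longest transcript of 7705 bases in GENCODE M21 against 3484 bases for all tested genes. Fold changes in these libraries ran with length. The median log2 fold change of tested genes was -0.17 in the shortest class and 0.12 in the longest, and Spearman's rank correlation over genes, which are not independent replicates, was 0.26 with length and 0.25 with GC content. The 10 members had a median log2 fold change of 0.24, against 0 for all tested genes. The log2 fold change was above 0 in 10 of 10 members, against 49.6% of all tested genes and 62.6% of the longest class. In 7 of 10 members both anti-miR132-3p libraries were above both scramble libraries, against 31.3% of all tested genes and 43.5% of the longest class.

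With GC content and length fitted out of each library, the median of the members was 0.10 and that of all tested genes -0.04, and 994 genes were called higher and 1410 lower, against 1540 and 1183 without it. Drosha kept its call at a log2 fold change of 0.30 (adjusted p = 0.0283, edgeR). The Tnrc6c value was 0.12 and lost the call (adjusted p = 0.482, edgeR), and Dicer1, at 0.28, remained uncalled (adjusted p = 0.36). The Argonautes then lay between -0.01 for Ago3 and 0.11 for Ago4.

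**Figure D3:**
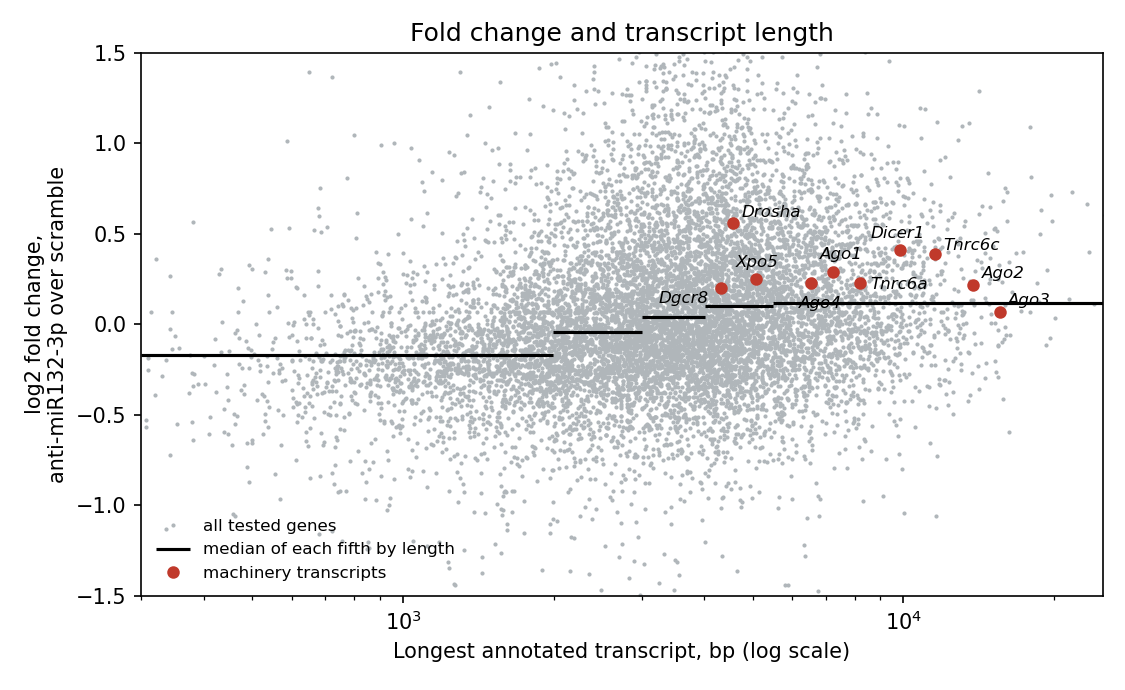
log2 fold change, anti-miR132-3p over scramble, against the longest annotated transcript (log axis) for all tested genes (grey), with the median of each of the 5 length classes (black lines) and the 10 machinery transcripts (red); 165 genes beyond 1.5 on either side, and transcripts outside the axis, are not drawn. The machinery transcripts lie in the longest 2 classes, where the medians are 0.10 and 0.12, and Drosha is the farthest above them.

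Levels can be compared between genes only per length of transcript. On the scale of CPM per kilobase of annotated exon, Drosha was the highest member, at 20.9 (18.9 to 22.9, exact Poisson interval) with the anti-miR132-3p shRNA and 14.1 (12.6 to 15.8) with the scramble shRNA. These values are at percentile 76.2 of all tested genes with the anti-miR132-3p shRNA and 66.5 with the scramble shRNA. Next came Tnrc6a, at 8.90 in anti-miR132-3p and 7.57 in scramble libraries, and Tnrc6c, at 8.63 in anti-miR132-3p and 6.60 in scramble libraries. The intervals of these 2 scaffolds overlap in both groups, so their order is not settled. Dgcr8 was at 6.18 in anti-miR132-3p and 5.36 in scramble libraries, and Xpo5 at 4.99 in anti-miR132-3p and 4.20 in scramble libraries, again with overlapping intervals.

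The Argonautes were low on this scale. Ago2 was at 3.70 CPM per kilobase in anti-miR132-3p and 3.18 in scramble libraries, and Ago3 at 3.29 in anti-miR132-3p and 3.13 in scramble libraries, with overlapping intervals. Ago4 followed at 2.76 in anti-miR132-3p and 2.35 in scramble libraries, then Ago1 at 1.96 in anti-miR132-3p and 1.60 in scramble libraries. Dicer1 was the lowest member, at 1.94 in anti-miR132-3p and 1.46 in scramble libraries, near Ago1. Of the 4 Argonautes' summed level per kilobase, Ago2 made up 31.6% with the anti-miR132-3p and 31.0% with the scramble shRNA, and Ago3 28.1% with the anti-miR132-3p and 30.5% with the scramble shRNA. Ago4 made up 23.5% with the anti-miR132-3p and 22.9% with the scramble shRNA, and Ago1 16.8% with the anti-miR132-3p and 15.6% with the scramble shRNA. Per kilobase of the longest transcript instead, Dicer1 stood at 3.30 in anti-miR132-3p and 2.47 in scramble libraries, above Ago1 at 2.21 in anti-miR132-3p and 1.80 in scramble libraries, and Dgcr8 at 11.0 in anti-miR132-3p and 9.56 in scramble libraries, above Tnrc6c at 9.56 in anti-miR132-3p and 7.31 in scramble libraries. The places of Dicer1 and of Dgcr8 and Tnrc6c in the order thus depend on the annotated length used, as does the order of Ago2 and Ago3 in scramble libraries (3.23 for Ago2 and 3.32 for Ago3).

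**Figure D4:**
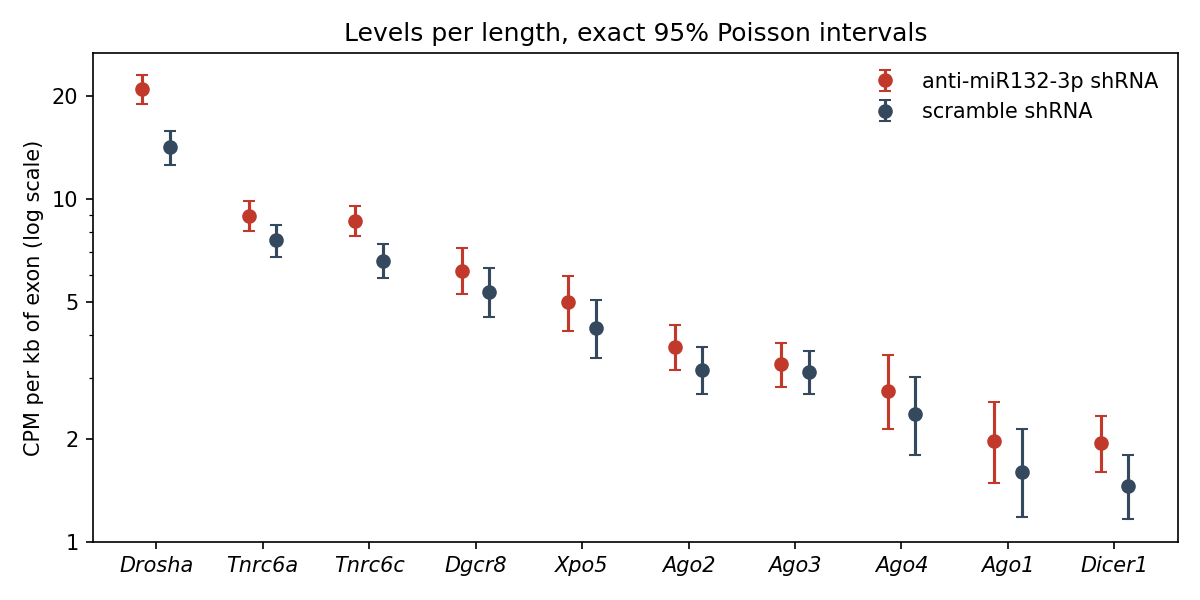
Level of each machinery transcript in CPM per kilobase of annotated exon (log axis), ordered by the scramble level, with exact 95% Poisson intervals of the summed counts. Drosha stands above the rest in each group, the 2 Tnrc6 scaffolds and then Dgcr8 and Xpo5 follow, and the 4 Argonautes and Dicer1 lie lowest; per kilobase of the longest transcript, not drawn, Dgcr8 is above Tnrc6c in each group.

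The 3' untranslated regions of the members were searched for the 7 bases opposite the seed of miR-132-3p and miR-212-3p, GACTGTT, on the transcript strand. Of the 10 members, 3 held it, all of them Argonautes, and 7 did not. The stretches that end in each match are shown because they hold, in the messengers of its own effectors, the letters opposite the targeted microRNA's seed. They come from GENCODE M21 transcripts (GRCm38), with the match in capitals, and in the second of Ago3 the adjoining A as well.
Ago1: atggaaaaagcccagGACTGTT
Ago2: cataaacagcaagtgGACTGTT
Ago3, first: cctgcttgatgagaaGACTGTT
Ago3, second: agctgtaaccaatgtGACTGTTA
These regions are long, at 4491 bases in Ago1, 11064 in Ago2 and 12742 in Ago3. The same 7 bases occurred in 14.7% of tested genes with an annotated 3' untranslated region, and in 31.2% of those with a region of at least 3000 bases, a class that holds 6 members, 3 of them with the match. A match is a description and not a site. The folds of the Argonautes that hold it were 1.23 for Ago1, 1.16 for Ago2 and 1.05 for Ago3, and that of Ago4, which does not, was 1.17. None of these 4 was called.

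Genes that act before, beside and after the 10 members were described from a list of 82 drawn from general knowledge of the pathway. The list was chosen with earlier results of these data known. Of the 82 genes, 81 had an identifier and 73 were tested. EdgeR's quasi-likelihood test called 14 of them higher and 7 lower, which is 19.2% and 9.59% of the 73, against 13.5% and 10.4% of all tested genes. The median log2 fold change was 0.05, against 0 for all tested genes. DESeq2's Wald test called 8 of these 21: Ddx5, Adarb1, Snd1 and Edc4 higher, and Tsn, Hsp90aa1, Hsp90ab1 and Hspa8 lower. Leaving out any 1 library leaves a single library in a group. It ended the edgeR calls of all genes, so that loss is not particular to the pathway.

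**Figure D5:**
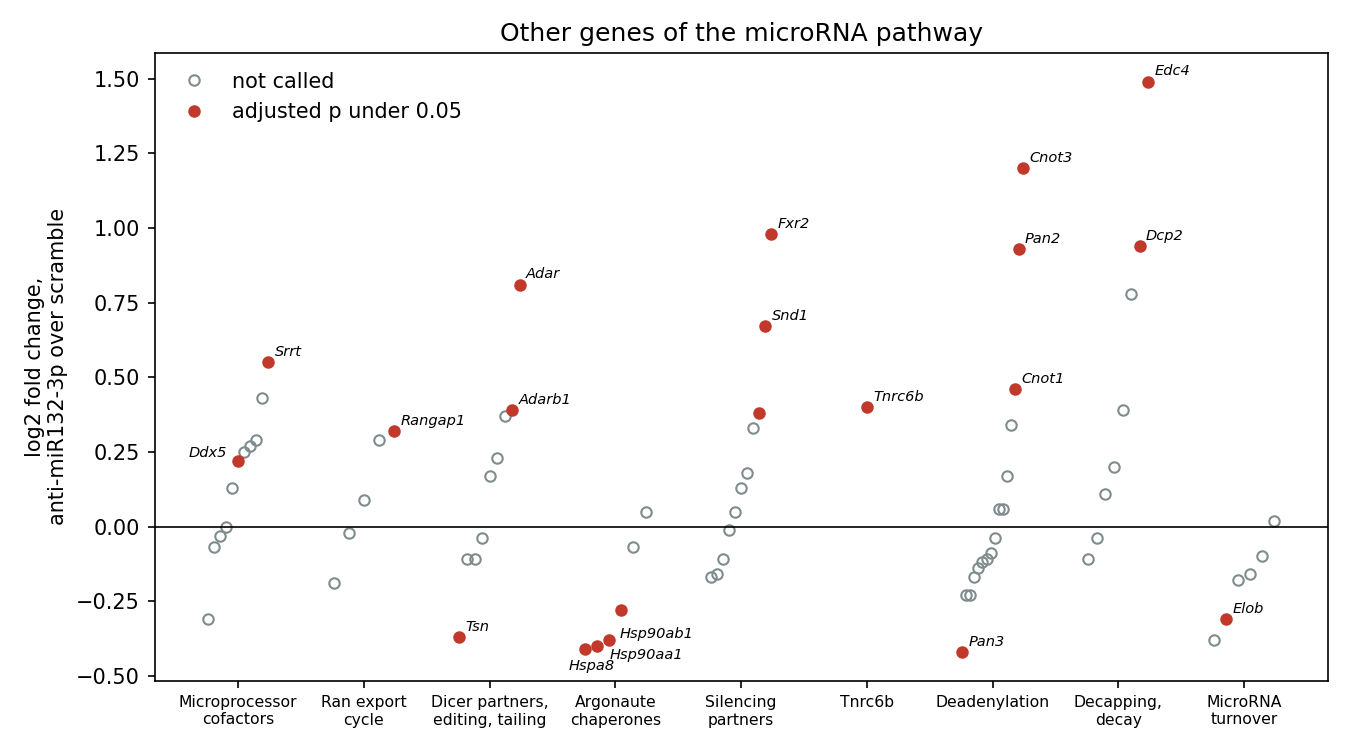
log2 fold change, anti-miR132-3p over scramble, of each tested gene of the microRNA pathway outside the 10 members, by step; filled circles passed edgeR's quasi-likelihood test at an adjusted p under 0.05, and most of them are named. The chaperone column lies mostly below 0, and the highest points, Edc4 at 1.49 and Cnot3 at 1.20, belong to decapping and deadenylation.

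The counts of calls at each step rest on few genes. They stand beside 13.5% of all tested genes called higher and 10.4% called lower. Around the Microprocessor, 2 of 11 tested cofactors were called higher and none lower. Srrt, which links the cap-binding complex to primary microRNA processing, had 35.9 and 41.8 CPM in anti-miR132-3p libraries, against 26.1 and 27.1 CPM in scramble libraries (1.46-fold, 1.12 to 1.92). Ddx5, the RNA helicase p68 of the Microprocessor, had 1638 and 1652 CPM in anti-miR132-3p against 1397 and 1432 CPM in scramble libraries (1.16-fold, 1.12 to 1.21). After the GC content and length correction, Ddx5 stayed called at a log2 fold change of 0.23 and Srrt did not (0.24, adjusted p = 0.418, edgeR). In the Ran cycle that powers exportin-5, 1 of 5 genes was called, Rangap1, the activator of Ran's GTPase, at 173 and 145 CPM in anti-miR132-3p libraries against 114 and 141 CPM in scramble libraries. Its log2 fold change of 0.32 became 0.02 after the correction.

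Among Dicer partners and enzymes that edit or tail precursors, 2 of 9 were called higher and 1 lower. Adar, an adenosine deaminase of double-stranded RNA with an interferon-induced isoform, had 27.8 and 26.7 CPM in anti-miR132-3p libraries, against 13.9 and 17.2 CPM in scramble libraries (1.76-fold, 1.25 to 2.49). Adarb1, the second such deaminase, was 1.31-fold higher (1.18 to 1.46). The correction ended both calls, at log2 fold changes of 0.48 for Adar (adjusted p = 0.153, edgeR; 0.81 before) and 0.08 for Adarb1 (adjusted p = 0.525; 0.39 before). Tsn, which encodes translin, a subunit of the nuclease complex C3PO, was 1.29-fold lower (1.19 to 1.40), at 279 and 287 CPM in the anti-miR132-3p libraries against 362 and 369 CPM in the scramble libraries, and stayed lower after the correction (log2 fold change -0.44).

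Of 6 tested chaperones and co-chaperones that open an empty Argonaute for loading, 4 were called lower and 0 higher (edgeR). Of all tested genes, 10.4% were called lower and 13.5% higher. Hsp90ab1, a cytosolic HSP90, had 2004 and 1936 CPM in anti-miR132-3p libraries, against 2577 and 2562 CPM in scramble libraries (1.30-fold lower, 1.26 to 1.35). Hsp90aa1, its stress-inducible relative, was 1.32-fold lower (1.27 to 1.37), and Hspa8, the constitutive HSC70, 1.33-fold lower (1.27 to 1.38). The calls of these 3 genes remained after the GC content and length correction, at log2 fold changes of -0.37 to -0.44. Hsp90aa1, Hsp90ab1 and Hspa8 have near-identical processed pseudogenes, so their counts are uncertain, and they serve many other clients besides Argonautes.

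On the effector side, 3 of 11 tested partners of the silencing complex were called higher and none lower. Snd1, a nuclease of the silencing complex, had 114 and 106 CPM in anti-miR132-3p libraries, against 68.8 and 69.2 CPM in scramble libraries (1.59-fold, 1.35 to 1.88). Fxr2, a relative of the fragile X protein, was 1.97-fold higher (1.35 to 2.93). Fxr2 lost its call after the correction, at a log2 fold change of 0.59 against 0.98 before (adjusted p = 0.132, edgeR), while Snd1 kept its call.

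In deadenylation, 3 of 16 genes were called higher and 1 lower. Cnot1, the scaffold of the CCR4-NOT complex that Tnrc6 proteins recruit, had 110 and 119 CPM in anti-miR132-3p libraries, against 83.2 and 82.4 CPM in scramble libraries (1.38-fold, 1.18 to 1.61). Cnot3, another subunit, rested on 28 and 38 counts in anti-miR132-3p against 18 and 12 in scramble libraries and was 2.30-fold higher (1.47 to 3.67). The partners of the PAN complex differed in sign. Pan2, its deadenylase, had 42.3 and 41.2 CPM in anti-miR132-3p libraries against 23.9 and 19.9 CPM in scramble libraries, whereas Pan3, its adaptor, had 38.3 and 40.6 CPM in anti-miR132-3p against 51.6 and 54.2 CPM in scramble libraries. All 4 calls remained after the correction, and Cnot9, a further CCR4-NOT subunit, became called lower (log2 fold change -0.31, adjusted p = 0.0154, edgeR; -0.23 before).

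Decapping and decay had 2 of 8 called higher. Edc4, a scaffold of the decapping complex, showed the largest fold of the pathway list, with 88 and 71 counts in anti-miR132-3p libraries against 29 and 30 in scramble libraries (2.82-fold, 2.08 to 3.87). Dcp2, the decapping enzyme, was 1.93-fold higher (1.16 to 3.27) at the edge of the threshold (adjusted p = 0.0499, edgeR) and just outside it after the correction (adjusted p = 0.0578), where its log2 fold change was 0.89, against 0.94 before. Of 6 genes of microRNA turnover 1 was called, Elob, a subunit of several ubiquitin ligases, 1.24-fold lower (1.12 to 1.38). The germline Argonautes Piwil1, Piwil2 and Piwil4 had at most 7 counts in a library and were not tested.

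Besides Cnot9, the GC content and length correction added 4 calls, named here after their values were seen. Fkbp4, an HSP90 co-chaperone, turned from a log2 fold change of 0.05 to a lower call at -0.21 (adjusted p = 0.0028, edgeR). Safb2, on the list of Microprocessor cofactors, was called lower at -0.48 (-0.07 before), and Zswim8, a ubiquitin ligase receptor of microRNA turnover, lower at -0.88 (-0.38 before). Hnrnpa1, an RNA-binding protein of the cofactor list, was called higher at 0.31 (0.27 before). With the correction, 8 of the 73 tested pathway genes were thus called higher and 11 lower. Of all 11427 tested genes, the correction called 994 higher and 1410 lower, against 1540 higher and 1183 lower without it.

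Transcripts that host microRNAs were counted as far as they are polyadenylated. Of the 12 with an identifier, 8 were tested, 2 were called higher and 0 lower by edgeR. Of all tested genes, 13.5% were called higher and 10.4% lower. Values after the GC content and length correction are not given for these hosts. Mir124a-1hg, a host of the neuronal microRNA miR-124, had 80.6 and 74.3 CPM in anti-miR132-3p libraries, against 46.1 and 49.2 CPM in scramble libraries (1.63-fold, 1.34 to 1.98). Mir124-2hg, another host of miR-124, was at 474 and 477 CPM in anti-miR132-3p against 489 and 486 CPM in scramble libraries, with a fold of 0.974 (0.910 to 1.04), and was not called; the difference between these hosts was not tested. Meg3, at the start of the imprinted Dlk1-Dio3 microRNA region, was 1.11-fold higher (1.08 to 1.13), while Rian and Mirg of that region were not called. Rian had 215 CPM for anti-miR132-3p against 228 CPM for scramble, and Mirg 20.0 CPM for anti-miR132-3p against 21.6 CPM for scramble. Mir22hg, Mir9-3hg and Mir99ahg were not called either, with folds of 0.851 (0.689 to 1.05), 0.931 (0.638 to 1.36) and 0.916 (0.565 to 1.48) in that order.

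Markers of other cells moved between the groups beside these results. Müller glia and astrocyte markers summed to 1806 and 1794 CPM in anti-miR132-3p libraries, against 1240 and 1247 CPM in scramble libraries, with 2 of 7 tested called higher. Markers of microglia and other leukocytes summed to 71.9 and 80.1 CPM in anti-miR132-3p against 13.3 and 18.8 CPM in scramble libraries, with 2 of 3 tested called higher and 1 lower, and with Aif1 at 0 in the anti-miR132-3p group and C1qa, C1qb, Cx3cr1, Tmem119, Ptprc and Tyrobp at 0 in the scramble group. Rod markers summed to 29.6 and 26.7 CPM in anti-miR132-3p libraries, against 107 and 97.4 CPM in scramble libraries, with Gnat1 and Pde6g at 0 in both and 3 of 4 tested called lower. Bipolar markers summed to 124 and 113 CPM in anti-miR132-3p against 112 and 96.8 CPM in scramble libraries. Only 1 of the 7 bipolar markers was tested, and it was not called. Grm6 was at 0 in both groups, and Pcp2 and Cabp5 at 0 in the scramble group. Endothelial markers summed to 7.54 and 6.97 CPM in anti-miR132-3p against 0.555 and 2.21 CPM in scramble libraries. Only 1 of the 5 endothelial markers was tested, and it was called higher. Cdh5 and Cldn5 were at 0 in both groups, and Tek at 0 in the scramble group. The microRNA machinery works in most cell types, and the part of these cells in its levels was not tested.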

How the data were processed

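The values deposited by the authors are whole-number counts per gene, as the values themselves show, for 4 libraries, 2 per group per the labels. Per the submitters' processing notes, the tools included HISAT2 2.2.1, Trimmomatic 0.39, SAMtools 1.10 and the Cufflinks programs, with the build GRCm39. Which counter, annotation release or strand option was used is not stated. Symbols came from a table of mouse gene names, which matched 51486 of 78334 identifiers. Lengths, GC content and 3' untranslated regions came from GENCODE M21, of the older build GRCm38, so no coordinates are given.

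The whole table was fitted in R 4.3.3 with edgeR 4.0.16 (filterByExpr, TMM, glmQLFit with legacy set to FALSE, glmQLFTest), with p-values adjusted by Benjamini-Hochberg across the 11427 genes tested and a threshold of 0.05. Alternatives used DESeq2 1.42.0, limma 3.58.1 (voom), other scalings and filters, left-out libraries, a replicate block, and spline fits (4 degrees of freedom) on GC content and log length per library. The code was tested on simulated data, where 6% of 1.25-fold changes and 32% of 1.5-fold changes were recovered. A gene that was not called may thus still differ by a fold of this size. Totals of 1731199 to 1846637 counts set the precision, and 3 counts in 1 library equal 1.62 to 1.73 CPM. The members, pathway lists and markers were chosen with earlier results of these data known. All members are named, with every called gene of each pathway list and the hosts with at least 50 counts, except that a few genes are not reported here. The labels do not say whether a group's libraries come from separate animals, so p-values measure a spread that may be technical.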

Additional observations from a re-analysis of the deposited data

How the results depend on the processing

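With 1 sample per group, fold changes here have no replicate check, and the members have 20 to 216 counts per library, so the counting intervals of only 3 of the 10 folds exclude 1. The main counts by edgeR were 2 machinery members higher and 0 lower, and 14 pathway genes higher and 7 lower. Without a filter on low counts, edgeR called 0 members higher, and 0 pathway genes higher and 0 lower. Leaving out each library in turn ended every edgeR call, of the members, the pathway genes and all other genes tested. A single library was then taken to vary as the other pair does, so such a fit cannot decide a call. DESeq2 on all 4 libraries called 1 member higher, Drosha, and 4 pathway genes higher and 4 lower. A minimum of 1.5-fold left 0 members, and 7 pathway genes higher and 0 lower. Over all genes, the calls were 1540 higher and 1183 lower in the main test, 481 and 274 by DESeq2, 1 and 2 without the filter, 969 and 268 with the minimum fold, and 994 and 1410 with the correction. The GC content and length correction gave 1 member higher, Drosha, and 8 pathway genes higher and 11 lower. The remaining scaling, filter and test alternatives, and the replicate block, called the same 2 members. With the replicate block the counts were 2 members and 15 pathway genes higher and 8 lower; same-numbered libraries did not deviate together (correlation over genes 0.013), so the numbers only name the libraries. Over 140 values of single members under 14 alternatives, 124 kept direction and side of the threshold and 14 lost the call. The 8 uncalled members had no call to lose. Drosha lost its call without the filter, with the minimum fold and with each library left out, and Tnrc6c in these settings, by DESeq2 and with the correction. The other 2 values turned direction, both for Ago3. Its log2 fold change was -0.12 to 0.25 with each library left out, lowest without anti-miR132-3p replicate 2, and -0.01 with the correction. Except where a minimum fold makes it by construction, the cause was not tested.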
